A study of Mus musculus with 2031 samples.

Results

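Serine and glycine are made, exchanged and broken down by a small set of enzymes and carriers, and 10 of their genes were followed here through single cells sorted from adult mouse brain. They are Phgdh, Psat1, Psph, Srr, Shmt1, Shmt2, Gldc, Slc7a10, Slc1a4 and Slc6a9, taken by symbol from the 49671 genes counted in each cell. All 10 symbols were found. Cells came from untreated C57BL/6J mice at postnatal day 56. There were 2 cortical suspensions (cortex 1 and cortex 2), each from a single animal of the same litter, and 2 hippocampal suspensions (hippocampus 1 and hippocampus 2), each pooled from several littermates. Region, litter and pooling therefore cannot be told apart. Live cells were sorted singly with an antibody to ACSA-2, an epitope of the sodium pump subunit Atp1b2, leaving out cells positive for the oligodendrocyte antigen O1, and were sequenced with Smart-seq2, which reads full-length cDNA and adds no molecular tags. The authors' labels gave 1781 astrocytes in 5 subtypes named AST1 to AST5, 27, 12, 48 and 47 mural cells in cortex 1, cortex 2, hippocampus 1 and hippocampus 2, and in all 30 endothelial cells, 17 neuronal cells, 11 microglial cells and 9 oligodendrocytic cells.

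L-serine is built from the glycolytic intermediate 3-phosphoglycerate by Phgdh, Psat1 and Psph in turn, and in the adult brain this route is known mainly from astrocytes. Serine hydroxymethyltransferases convert serine to glycine and hand a carbon unit to folate, the glycine cleavage system breaks glycine down, and serine racemase forms D-serine, which like glycine is a co-agonist of NMDA receptors. Carriers move these amino acids between astrocytes, neurons and the extracellular space.

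Counts of a cell type or subtype were added up within each suspension, and such a sum, not a cell, was the replicate. Levels are CPM, a gene's share of the gene counts of the sum scaled to 1000000, given as mean ± SD over sums. Cells held 600758 to 3238215 gene counts, with a median of 1458411. The labelled types carried their markers: 8 astrocyte markers summed to between 43499 and 45203 CPM in the 4 astrocyte sums and to at most 3485 CPM in mural sums, whose own 7 markers summed to at least 48969 CPM. Endothelial sums also held mural markers at 10008 to 25818 CPM. The authors' clusters rest on these same counts, so p-values between types or subtypes are not independent evidence of a difference.

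Levels were set per kilobase of annotated exons for a rough comparison of genes with each other. The length took in the exons of all annotated transcripts, whichever were expressed, so the order is approximate. The exchanger gene Slc7a10 stood highest in the astrocytes of all suspensions at 725 ± 119.2 CPM per kb (n = 4 suspensions). Phgdh, the first enzyme of the route, followed at 432 ± 39.3 CPM per kb. The neutral amino acid exchanger Slc1a4 lay at 196.5 ± 30.99 and the aminotransferase Psat1 at 123.4 ± 15.3 CPM per kb. The phosphatase Psph reached 40.1 ± 1.07, the glycine decarboxylase Gldc 29.7 ± 5.64, the mitochondrial Shmt2 23.1 ± 5.29 and the glycine transporter Slc6a9 17.03 ± 1.25 CPM per kb. The racemase Srr was low at 7.11 ± 0.667 CPM per kb, and the cytosolic Shmt1 was nearly silent at 0.244 ± 0.260 CPM per kb. Detection ran in the same order for the first 6 genes: a count of Slc7a10 was present in 91.7% of astrocytes and of Phgdh in 86.9%, against 14.4% for Srr and 0.561% (10 of 1781 cells) for Shmt1.

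Phgdh, the entry to serine synthesis, and Slc7a10, the most abundant carrier, had opposite orders of mean CPM over the subtypes, with limits described further on. The 250 bases before their RefSeq starts are therefore shown. The sequences are those of RefSeq on GRCm38.p6, read in the direction of the gene, with each CG dinucleotide in capitals.
Phgdh, chr3:98339970-98340219, minus strand: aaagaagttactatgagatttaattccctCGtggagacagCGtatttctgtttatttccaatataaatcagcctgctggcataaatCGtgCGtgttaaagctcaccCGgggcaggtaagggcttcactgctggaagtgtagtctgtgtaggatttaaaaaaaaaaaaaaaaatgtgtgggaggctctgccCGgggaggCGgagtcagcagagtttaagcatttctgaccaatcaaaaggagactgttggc
Slc7a10, chr7:35186135-35186384, plus strand: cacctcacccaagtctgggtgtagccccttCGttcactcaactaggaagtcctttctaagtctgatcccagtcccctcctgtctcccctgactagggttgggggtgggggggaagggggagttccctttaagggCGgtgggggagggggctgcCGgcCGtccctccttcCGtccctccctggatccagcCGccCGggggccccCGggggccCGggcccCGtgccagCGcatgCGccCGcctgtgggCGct
The Phgdh stretch held 44% G or C and 7 CG, and the Slc7a10 stretch 69.6% and 14 CG, beside medians of 52.4% and 6 CG over 32851 annotated promoters. The letters TGATGNAA, the element of the amino acid response factor ATF4, were searched on both strands of the stretch from 250 bases before to 50 after each start. They lay in 3.97% of all promoters and, of the 10 genes, in that of Slc1a4 alone, at position -4 from the start and on the opposite strand to the gene.
Slc1a4, chr11:20332710-20332747, minus strand, element in capitals: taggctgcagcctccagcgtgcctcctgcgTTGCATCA
The E-box CACGTG lay in 7.15% of all promoters and in those of none of the 10 genes. A match or its absence describes letters only.

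Phgdh lies on chromosome 3 at 98313170 to 98339990 and Slc7a10 on chromosome 7 at 35186385 to 35201114 (GRCm38). Some counts could belong to sequence that the genes share with others. Gm7901, a processed pseudogene, had 70.8% of its 30-base words in common with Phgdh transcripts and 40.1 CPM in astrocytes, which is 3.75% of the Phgdh counts. All 1477 astrocytes with a count of Gm7901 also had one of Phgdh. Smart-seq2 does not mark the strand, and apart from Phgdh and Slc1a4 each of the 10 genes overlaps at least 1 other gene. Among these partners Lrp3, which overlaps Slc7a10, was counted at 42.99 CPM in astrocytes, Cct6a beside Psph at 152.7 CPM, and Tsr1 and Smg6 beside Srr at 13.7 and 15.1 CPM. Smcr8, which overlaps Shmt1, was at 9.57 CPM, more than Shmt1 itself. As a share of the counts of the gene beside it, Smcr8 came to 1027%, Cct6a to 88.1%, Smg6 to 46.6%, Tsr1 to 42.2% and Lrp3 to 2.77%. Counts on more than 1 gene were left out, so these shares do not measure wrongly assigned counts. Counts lost or misplaced in the overlaps were not measured, and the levels of Shmt1, Psph and Srr remain uncertain.

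Phgdh, Psat1, Gldc and Slc7a10 were far lower in mural cells, which wrap blood vessels, than in astrocytes. Phgdh had levels of 1023, 994, 1214 and 1068 CPM in the astrocytes of cortex 1, cortex 2, hippocampus 1 and hippocampus 2, and at most 0.0725 CPM in any mural sum. The mural cells together held 5 counts of Phgdh, 9 of Slc7a10 and 1 of Gldc, and Psat1 reached at most 3.89 CPM in a mural sum. The ranges of astrocytes and mural cells did not overlap for any of these genes. Over all cells, the astrocyte level was 36558-fold that of mural cells for Phgdh, 29521-fold for Slc7a10 and 635-fold for Psat1. The Psat1 figure rests on cortex 1, as the other mural sums held 0 to 0.0362 CPM. In the quasi-likelihood test of edgeR, 4 of 10 genes were lower in mural cells at the threshold of 0.05 on p-values adjusted over all genes (adjusted p = 0.0167 for Slc7a10 and 0.0325 for the others). Of all genes tested 13.4% were called in either direction, 288 higher and 1903 lower. The calls of Phgdh, Psat1 and Gldc were each lost in 6 of 15 alternatives and that of Slc7a10 in 4 of 15. With the suspension as a block the adjusted p was 0.0249 for Slc7a10, 0.0512 for Phgdh and 0.0756 for Psat1 and Gldc.

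In endothelial cells 5 of 10 genes were lower, beside 17.9% of all genes tested: Psat1, Shmt1, Gldc, Slc7a10 and Slc6a9, with adjusted p from 0.0154 to 0.0412. The call of Shmt1 is not read as a difference, since 10 of 1781 astrocytes had a count and the call was lost in 10 of 12 alternatives. Those of Slc6a9 and Gldc were lost in 9 and 7 of 15, among them the fit with the suspension as a block (adjusted p = 0.0721 and 0.0616). Those of Psat1 and Slc7a10 were each lost in 4 of 15. Neither Gldc nor Slc6a9 had a count in any of 30 endothelial cells, which allows a share of cells with a count of up to 10%. Against a floor of 3 counts over these cells, the astrocyte level was at least 2542-fold higher for Gldc and at least 1248-fold higher for Slc6a9. Phgdh in endothelial sums was at 0 in both cortical suspensions, 108.6 CPM in hippocampus 1 and 34.7 CPM in hippocampus 2, below every astrocyte sum but short of the threshold (adjusted p = 0.130).

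Microglial cells, 3 in each of the 3 suspensions that entered, lacked Slc1a4 in all 11 cells typed, which allows a share of up to 27.3%. Slc1a4 was the 1 of 10 genes lower there (adjusted p = 0.0140 by edgeR), a call lost in 3 of 13 alternatives. Of all genes tested 11.3% were called in either direction, 130 higher and 1727 lower, with a median log2 difference of -9.45. The count of 1 of 10 is near that share and is not read as a result about these genes. Psat1 was at 0, 446 and 264.1 CPM in the microglia of cortex 1, cortex 2 and hippocampus 2. The cortex 2 sum alone held Phgdh at 180, Gldc at 279.1 and Slc7a10 at 168 CPM, and its 8 astrocyte markers summed to 7849 CPM, against 542 and 395 CPM in the other sums. The part of these markers in the values was not tested.

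The 9 oligodendrocytic cells stood out among the other types for the first steps of serine synthesis. All 9 cells had counts of both Phgdh and Psat1. Psat1 was at 1700 CPM in hippocampus 1 and 1857 CPM in hippocampus 2, above the sum over all astrocytes of every suspension, the highest of which was 585 CPM. A single subtype sum, that of AST5 in hippocampus 1, reached 1796 CPM. Phgdh was at 1310 and 820 CPM, a range that spans the astrocyte sums. Slc6a9 was at 261.1 and 681 CPM, against 80.7 to 93.3 CPM in astrocytes. Cortex 1 gave 2 oligodendrocytic cells, too few to enter, with Phgdh at 1417, Psat1 at 1923 and Slc6a9 at 352.3 CPM. Gldc and Shmt2 had no count in these 9 cells, which allows a share of up to 33.3%. None of these differences was called: 0 of 10 genes passed, 4 of 10 at an unadjusted p under 0.05, with 0.782% of all genes called. The edgeR fit, which adjusts for region, gave a Psat1 difference of 1.20 on the log2 scale (SE 2.23, adjusted p = 0.788). SE is the standard error implied by the F statistic of the test. The Slc6a9 difference was -1.31 (SE 3.62, adjusted p = 0.877 by edgeR), with the opposite sign to the plain levels.

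Neuronal cells were present in the hippocampal suspensions only, 8 and 9 cells. Slc1a4, which exchanges serine and other neutral amino acids, was at 310 and 523 CPM there and present in 52.9% of the cells. Srr was counted in 35.3% of neuronal cells, at 24.1 and 57.2 CPM, beside 29.3 to 35.1 CPM in astrocytes, so the ranges overlapped. Psat1, Gldc and Slc6a9 had no count in these 17 cells, which allows a share of up to 17.6%. Of the 10 genes 0 were called and 5 had an unadjusted p under 0.05, with 0.562% of all genes called. Shmt2 was at 71.7 ± 16.5 CPM in astrocytes (n = 4), 50.98 ± 34.9 in mural (n = 4), 95.5 ± 113.9 in endothelial (n = 4) and 88.6 ± 47.8 CPM in neuronal sums (n = 2), but at 0 in the microglial and oligodendrocytic sums, and none of these differences was called.

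Across these 5 contrasts, 10 of 50 pairs of gene and type were called by edgeR and 23 by DESeq2, all lower than in astrocytes. The share of all genes that DESeq2 called is not given, here or below. Its counts are therefore not read as results about these genes. The number fell to 4 with the suspension as a block. Without cortex 1 it was 3, without cortex 2 it was 3, without hippocampus 1 it was 1 and without hippocampus 2 it was 0.

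**Figure D1:**
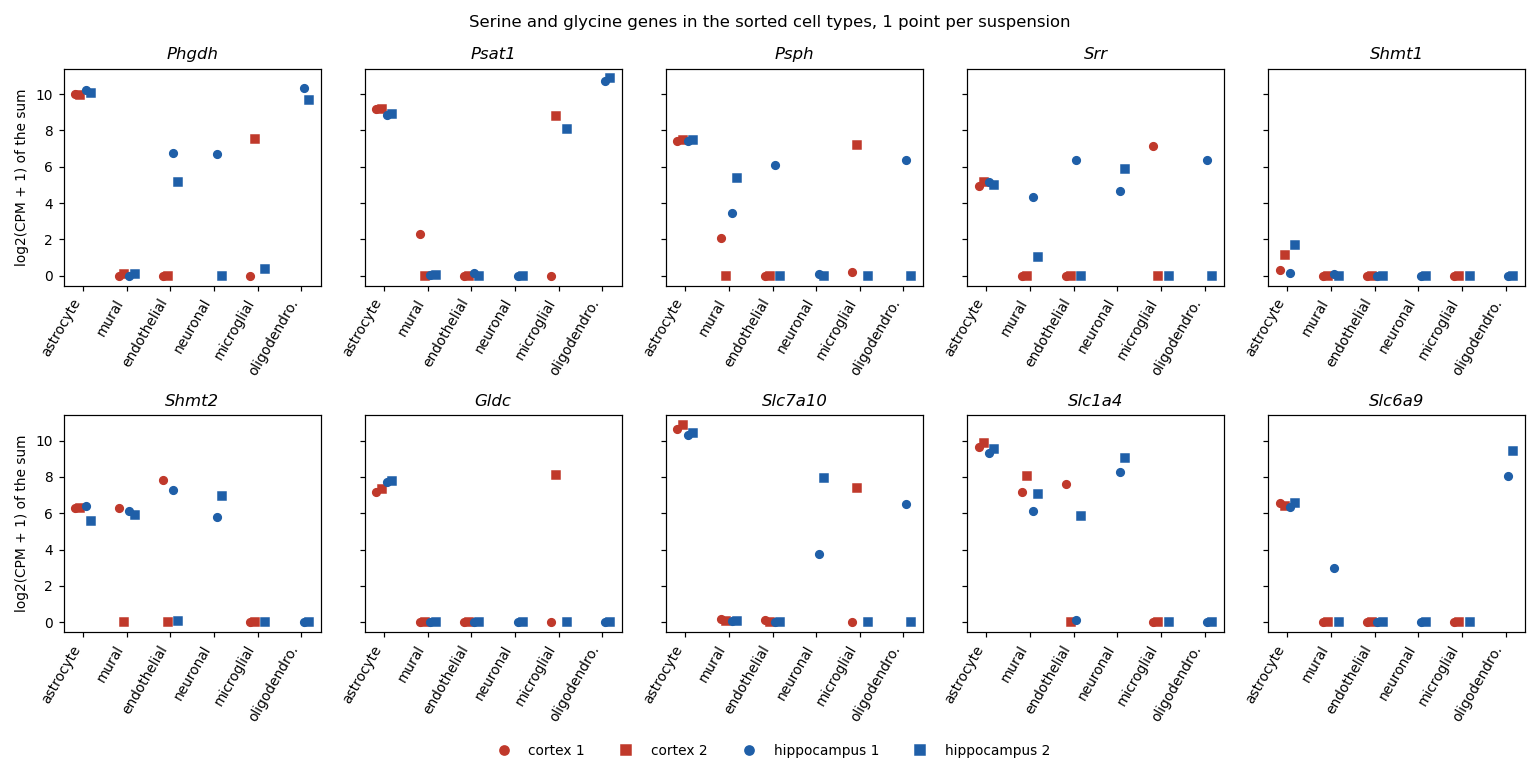
Levels of the 10 genes as log2(CPM + 1) of each sum (y axis, log scale) by cell type (x axis), 1 point per suspension with at least 3 cells of the type. Slc7a10 and Phgdh lie near the top in all 4 astrocyte sums and near 0 in mural sums, and Psat1 in the 2 oligodendrocytic sums lies above the astrocytes.

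Among the astrocyte subtypes the clearest difference was in Slc7a10, the exchanger that carries D-serine, glycine and other small neutral amino acids. Its levels in cortex 1, cortex 2, hippocampus 1 and hippocampus 2 were 1982, 2260, 2281 and 3346 CPM in AST2, a mainly cortical subtype. They were 1345, 1388, 1846 and 2068 CPM in AST3 and 1248, 1379, 1263 and 1228 CPM in AST1. In AST4, found almost only in hippocampus, they were 317.6 and 248.5 CPM in hippocampus 1 and hippocampus 2, and in AST5 they were 55.1, 102.1 and 201.7 CPM in cortex 1, cortex 2 and hippocampus 1. The AST4 and AST5 sums thus lay below every AST1, AST2 and AST3 sum, and AST4 lay above AST5. The same was true of single cells, with a count in 99.5% of 555 AST2 cells, 98.01% of 452 AST3 cells, 89.3% of 657 AST1 cells, 47.3% of 91 AST4 cells and 34.6% of 26 AST5 cells.

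Contrasts set a subtype against the average of the remaining subtypes, with weights by cell number. Slc7a10 was lower in AST4 by a log2 fold change of -3.05 (SE 0.325; adjusted p = 0.000235) and in AST5 by -4.41 (SE 0.287; adjusted p = 2.84e-07). In AST4 this was the 1 of 10 genes called, beside 0.636% of all genes, and in AST5 it was 1 of 2 that were lower, as were 16.6% of all genes there. The AST5 count of 2 of 10 is near that share and is not read as a result about the 10 genes. The AST4 call was lost without hippocampus 2 (adjusted p = 0.119), which leaves AST4 with 1 sum, and was kept under the other 17 alternatives. In AST2 Slc7a10 was higher than in the other subtypes by 0.95 (SE 0.188) without passing the threshold (adjusted p = 0.169). In each of the 8 sequencing pools, which all held cells of the 4 suspensions, cortical AST2 had more Slc7a10 than cortical AST3 and hippocampal AST4 had less than hippocampal AST1. The pools split the same suspensions again and add no replicates, here and below.

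Other measures moved with these groups. AST4 sums held 29819 to 31956 CPM of the 8 astrocyte markers, below every AST1, AST2 and AST3 sum (39151 to 47649 CPM). AST5 sums held 35000 to 42916 CPM, a range that overlapped that of AST2. The 7 mural markers summed to between 125.6 and 444 CPM in AST4 and to at most 288 CPM in the sums of AST1, AST2 and AST3. The 6 neuronal markers summed to 81.6 and 40.4 CPM in AST4, above every sum of AST1, AST2 and AST3 (at most 30.4 CPM), with 2 of 6 at 0 in each AST4 sum. The AST5 sum of cortex 1 held 216.5 CPM of the 6 oligodendrocyte markers and 100.01 CPM of the 6 microglial markers, with 4 of 6 at 0 in both lists, and the other AST5 sums held at most 0.115 CPM of either. AST5 cells had a median of 1405 to 1831 genes with a count, against 1801 to 2089 in AST1, and the median log2 difference over all genes tested in AST5 was -4.55. The part of these in the differences was not tested.

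The other carriers did not all follow Slc7a10. Slc1a4 ran from 841 to 998 CPM in AST3, from 521 to 993 CPM in AST2 and from 535 to 807 CPM in AST1, ranges that overlap in that order. It was at 362.8 and 374.1 CPM in AST4, below all of those, and in AST5 it was at 234.6 CPM in cortex 1 and 0 in the other sums, with a count in 1 of 26 cells. Neither difference passed the test (adjusted p = 1 for AST4 and 0.149 for AST5). Slc6a9, the transporter that takes up glycine, was at 9.02, 22.8 and 0 CPM in the AST5 sums against 58.4 to 273.1 CPM in all other subtype sums. Its difference in AST5 was -3.88 (SE 1.25; adjusted p = 0.0476). This call was lost in 9 of 17 alternatives, among them those without cortex 1 (adjusted p = 0.209), with the suspension as a block (0.0912), without cortex 2 (0.0790) and without hippocampus 2 (0.166), where AST5 had only 2 cells and no sum of its own.

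**Figure D2:**
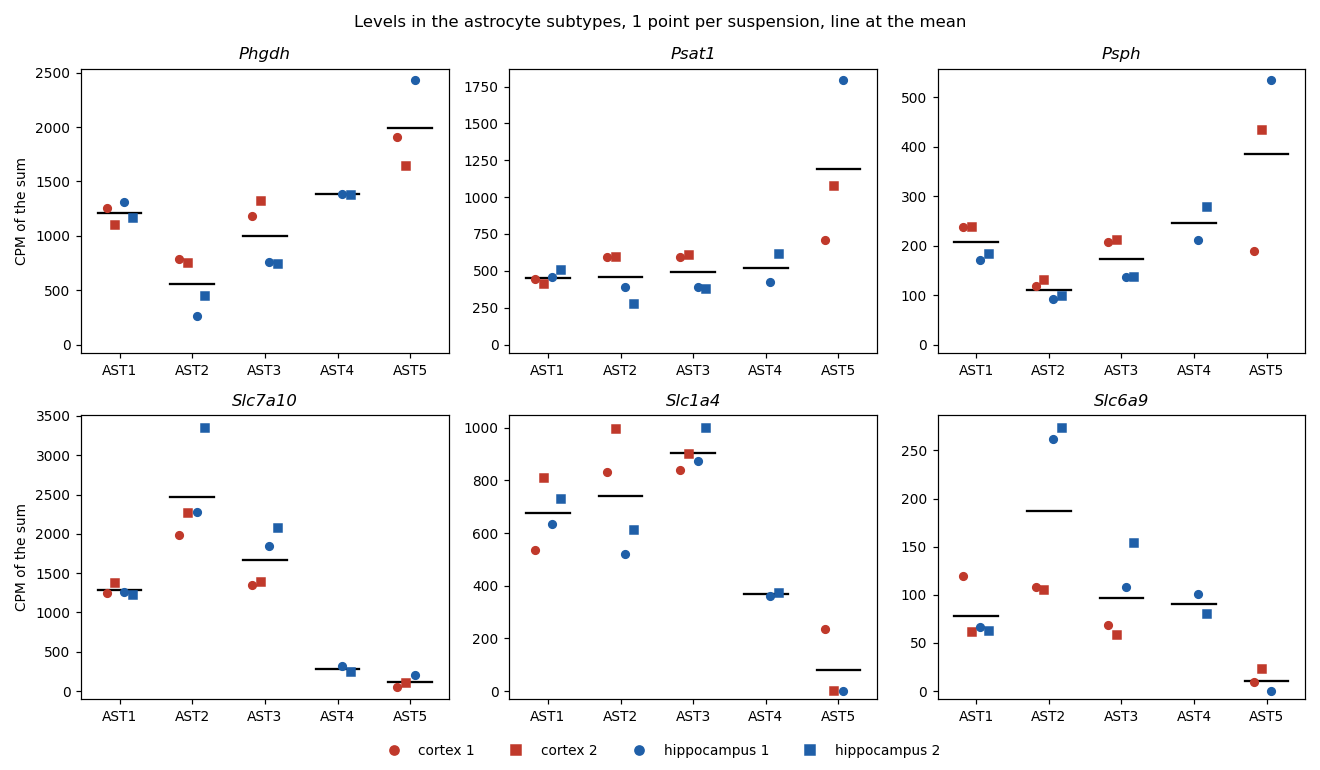
CPM of each sum (y axis) by astrocyte subtype (x axis) for 3 synthesis genes (top) and 3 carriers (bottom), 1 point per suspension with at least 5 cells and a line at the mean. Phgdh and Psph have their lowest means in AST2 and their highest in AST5, whereas Slc7a10 is highest in AST2 and lowest in AST5.

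Phgdh and Psph, the first and last enzymes of serine synthesis, had means in the reverse order to Slc7a10, without a call in any subtype. The means cover unlike sets of suspensions. In cortex alone Phgdh averaged 1252 CPM in AST3, 1179 in AST1 and 765 in AST2, so AST1 and AST3 changed places. In hippocampus alone AST1 (1236 CPM) lay above AST3 (751 CPM). Phgdh was at 784, 746, 259.4 and 451 CPM in AST2 of cortex 1, cortex 2, hippocampus 1 and hippocampus 2, below 1103 to 1309 CPM in every AST1 sum. AST4 sums were at 1387 and 1378 CPM, and AST5 sums at 1910, 1638 and 2429 CPM. The means fell from AST5 (1992 ± 402) to AST4 (1382 ± 6.24), AST1 (1208 ± 92.1), AST3 (1001 ± 295.01) and AST2 (560 ± 250 CPM). AST5 did not overlap AST4, nor AST4 AST1, while AST1 and AST3 overlapped, as did AST3 and AST2.

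The Phgdh differences from the other subtypes were -1.19 in AST2 (SE 0.238; adjusted p = 0.169), 0.81 in AST1 (SE 0.214; adjusted p = 0.738) and 0.41 in AST5 (SE 0.230; adjusted p = 0.279), none past the threshold. For AST4 the difference was 0.56 (SE 0.289, adjusted p = 0.760 by edgeR). Unlike the plain means, the fitted differences were thus not largest in AST5. That of AST5 turned to -0.10 with at least 10 cells per sum and passed the threshold in 1 of 17 alternatives. Cortical AST2 was below cortical AST3 in 8 of 8 pools, with 633 to 832 CPM against 1075 to 1485 CPM. Cortical AST2 cells had medians of 2155 and 2072 genes with a count, against 2627.5 and 2584 in cortical AST3. The part of this in the difference was not tested.

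Psph, the last enzyme, had a similar order. Its AST2 sums of 91.3 to 131.2 CPM lay below every sum of AST1 (170 to 238.7 CPM) and AST3 (136.01 to 211.4 CPM), and AST4 was at 211.8 and 279.1 CPM and AST5 at 189.1, 434 and 536 CPM. The difference of AST2 was -0.96 (SE 0.263; adjusted p = 0.893). Within the pools cortical AST2 was again lower than cortical AST3 in 8 of 8. Psat1, between these enzymes in the route, did not share this order: its means in AST1, AST2, AST3 and AST4 lay between 453 and 519 CPM with overlapping ranges, and only AST5 was higher at 710, 1076 and 1796 CPM. That difference of 0.64 (SE 0.246) was short of the threshold (adjusted p = 0.0985). It was called in 4 of 17 alternatives, fell to 0.08 without hippocampus 1 and turned to -0.34 among cells whose template-switching oligonucleotide had gone through 1 freeze-thaw cycle.

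Of the enzymes that use serine and glycine, Gldc had its highest mean in AST4 at 322.7 and 303.9 CPM, above every AST1 sum (184.5 to 244.5 CPM) but within the range of AST5 (87.5 to 346.6 CPM). Shmt2 was at 287 and 118 CPM in AST4, and hippocampal AST4 exceeded hippocampal AST1 in 8 of 8 pools, yet the fitted difference of 2.01 had an SE of 1.37 (adjusted p = 1). Srr lay at 80.6 to 132.98 CPM in the AST5 sums, 46.3 and 67.02 CPM in AST4 and at most 39.8 CPM elsewhere, a difference of 1.36 in AST5 (SE 0.938; adjusted p = 0.407). Shmt1 had counts in 10 astrocytes and no order could be read from it. In AST1, AST2 and AST3, 0 of 10 genes were called (3, 3 and 0 had an unadjusted p under 0.05), and the background was 0.0384%, 0.0548% and 0%. DESeq2 called 10 pairs of gene and subtype in place of 3.

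All 3 synthesis genes together were counted in 25.0% of astrocytes once each cell had been thinned to 500000 gene counts, from 18.2% of AST2 to 37.4% of AST4. None of the 3 was counted in 5.90% of astrocytes and in 93.3% of mural cells.

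Over the 17 subtype sums, the pattern of Phgdh on the log2(CPM + 1) scale was most like that of Gm7901, the pseudogene above (Pearson's r 0.99), Prkacb (0.95), a catalytic subunit of protein kinase A, and Pir (0.94), among 6738 genes of at least 20 CPM on average. Over the 12 sums of AST1, AST2 and AST3 alone, Phgdh and Psph kept an r of 0.89, Slc7a10 and Slc6a9 one of 0.84, and Phgdh ran against Slc7a10 (-0.83) and Slc6a9 (-0.89). Psat1 was less close to Phgdh (0.53). Slc7a10 was most like Pomt2 and Grina (both 0.96) and Atp13a4 (0.95) over 17 sums, but over 12 sums these became 0.77, 0.00 and 0.81. For Slc1a4 the closest were Tmem41b (1.00), Fkbp10 and Lgmn (both 0.99), which over 12 sums became 0.61, 0.54 and 0.08. The genes closest to Psat1 were Actb, Mapre3 and Ndufb4 (0.90 to 0.91), those closest to Psph were Sem1, Glo1 and Rab7 (0.88 to 0.92) and those closest to Gldc were Eef1d, Zbtb20 and Sec62 (0.80 to 0.83). Over 12 sums the genes closest to Psat1 had an r of 0.63 to 0.80, those closest to Psph 0.81 to 0.84 and those closest to Gldc 0.52, 0.28 and 0.58. The sums share suspensions and totals, and no test was made.

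Regions were first compared over all astrocytes of a suspension, 2 against 2. Slc7a10 was at 1620 and 1840 CPM in cortex and 1276 and 1384 CPM in hippocampus, Psat1 at 577 and 585 against 460 and 478 CPM, and Gldc at 145 and 158.7 against 206.3 and 214.1 CPM. Phgdh was at 1023 and 994 CPM in cortex and 1214 and 1068 CPM in hippocampus. Slc1a4 was at 787 and 929 CPM in cortex and 638 and 733 CPM in hippocampus. For each of these genes the 2 regions did not overlap, while for the remaining members they did. Separation of 2 sums from 2 is common by chance, and its share over all genes was not computed. It is therefore not read as support for a difference, here or below. The fitted differences, hippocampus minus cortex, were -0.36 for Slc7a10 (SE 0.0963; adjusted p = 0.264), -0.28 for Psat1 (SE 0.0570; adjusted p = 0.231), 0.49 for Gldc (SE 0.0917; adjusted p = 0.228), -0.30 for Slc1a4 (SE 0.131; adjusted p = 0.464) and 0.20 for Phgdh (SE 0.0771; adjusted p = 0.399). With edgeR 0 of 10 genes were called, and 0% of all genes, while 3 of 10 passed at an unadjusted p under 0.05, and by DESeq2 the calls were Psat1, Gldc and Slc7a10. Within sequencing pools, which split the same suspensions again, cortex was higher in 8 of 8 for Slc7a10 and for Psat1 and in 7 of 8 for Slc1a4, and hippocampus in 6 of 8 for Gldc and 7 of 8 for Phgdh.

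**Figure D3:**
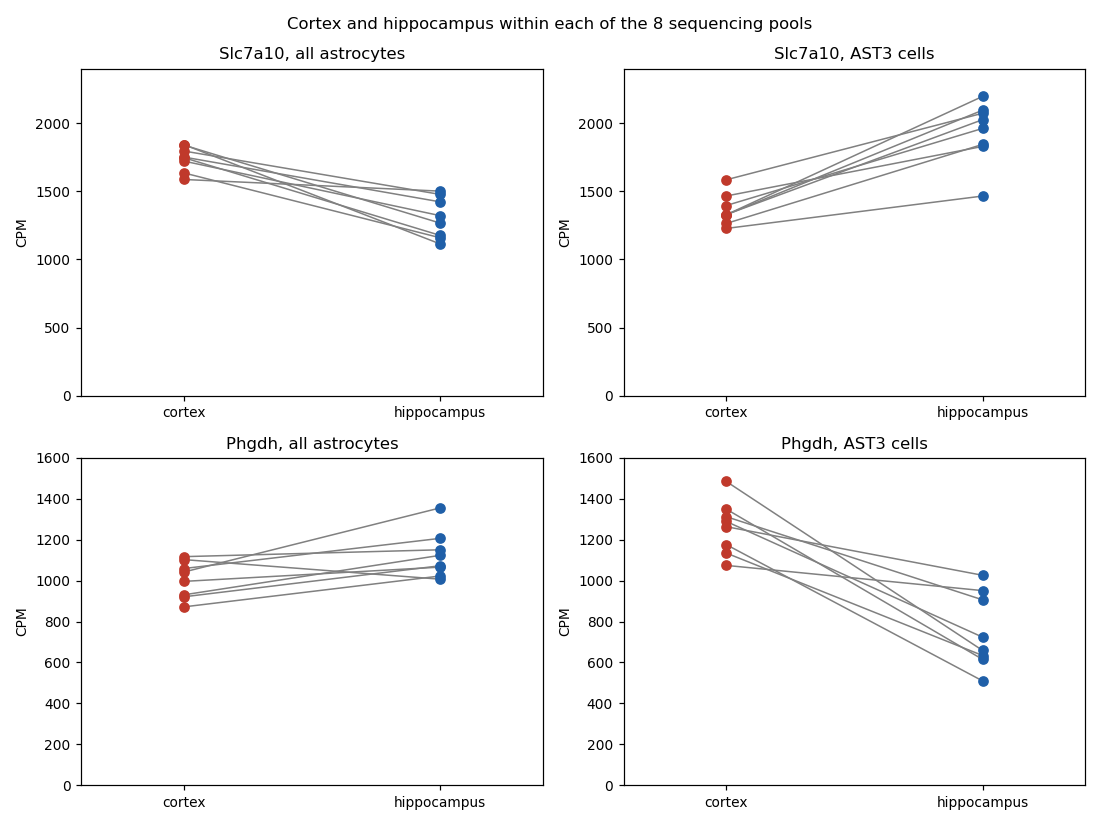
CPM in cortical and hippocampal cells of the same sequencing pool (8 pools, joined by lines) for Slc7a10 and Phgdh, in all astrocytes (left) and in AST3 cells (right). The lines of Slc7a10 fall from cortex to hippocampus in all astrocytes and rise in AST3, while 7 of 8 lines of Phgdh rise in all astrocytes and 8 of 8 fall in AST3.

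Within subtypes the direction was different for several genes. In AST3, which held at least 65 cells in each suspension, Slc7a10 was higher in hippocampus (1846 and 2068 CPM) than in cortex (1345 and 1388 CPM), in 8 of 8 pools. Phgdh was lower in hippocampus (762 and 740 CPM) than in cortex (1181 and 1322 CPM), also in 8 of 8 pools. Neither range overlapped, and both directions are opposite to those over all astrocytes. The Phgdh difference over all astrocytes turned to -0.018, however, when scaled to the ERCC spike-in RNAs. Slc6a9 in AST3 was at 69.03 and 58.4 CPM in cortex and 108.04 and 153.4 CPM in hippocampus, and Psat1 at 597 and 605 against 392.4 and 375.7 CPM. Cortical AST3 cells had medians of 2627.5 and 2584 genes with a count, and hippocampal ones 2051 and 2112. The part of this in the differences was not tested.

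These AST3 differences were 0.58 for Slc7a10 (SE 0.279), -0.67 for Phgdh (SE 0.243), -0.58 for Psat1 (SE 0.230) and 1.10 for Slc6a9 (SE 0.538), each with an adjusted p of 1. Of the 10 genes 0 were called in AST3 and 2 had an unadjusted p under 0.05, with 0.00472% of all genes called. AST2 showed the same directions on 10 and 22 hippocampal cells, although that of Slc7a10 turned without hippocampus 2 (-0.11). Phgdh there was 784 and 746 CPM in cortex against 259.4 and 451 CPM in hippocampus, a difference of -1.20 (SE 0.245; adjusted p = 0.0486) and the 1 of 10 genes called, beside 1.07% of all genes. The median log2 difference over all genes tested was -0.75 there, and all but 4 of the genes called were lower in hippocampus. The call was lost in 9 of 14 alternatives, including without cortex 1 (adjusted p = 0.324), without cortex 2 (0.285), without hippocampus 1 (0.174) and with the suspension as a block (0.0927). Slc7a10 in AST2 differed by 0.31 (SE 0.279; adjusted p = 0.791), higher in hippocampus in 6 of 8 pools. On so few cells its hippocampal level by pool ran from 490 to 4046 CPM.

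In AST1, with at least 55 cells in each suspension, the regions lay close together for the abundant genes. Phgdh differed by 0.10 (SE 0.242), Slc7a10 by -0.04 (SE 0.278) and Psat1 by 0.21 (SE 0.229), and the ranges of the first and second of these genes overlapped. None of 10 genes was called in AST1 (0 at an unadjusted p under 0.05; 0% of all genes called). Psph overlapped between the regions over all astrocytes (168.2 and 173.9 CPM in cortex, 172.3 and 179.4 CPM in hippocampus) but was lower in hippocampus without overlap in each of these subtypes. Its differences were -0.40 in AST1 (SE 0.370), -0.51 in AST2 (SE 0.370) and -0.55 in AST3 (SE 0.370), with adjusted p of 1, 0.730 and 1, and hippocampus was lower in 6, 6 and 8 of 8 pools. The regional difference of Phgdh itself differed between AST1 and AST2 by 1.30 (SE 0.344; adjusted p = 0.160) and between AST1 and AST3 by 0.78 (SE 0.343; adjusted p = 1.00), so that a difference between subtypes was not shown. For the pairs AST1 and AST2, AST1 and AST3, and AST2 and AST3, 0 of 10 genes were called, 3, 2 and 0 had an unadjusted p under 0.05, and 0.363%, 0% and 0.302% of all genes were called.

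**Figure D4:**
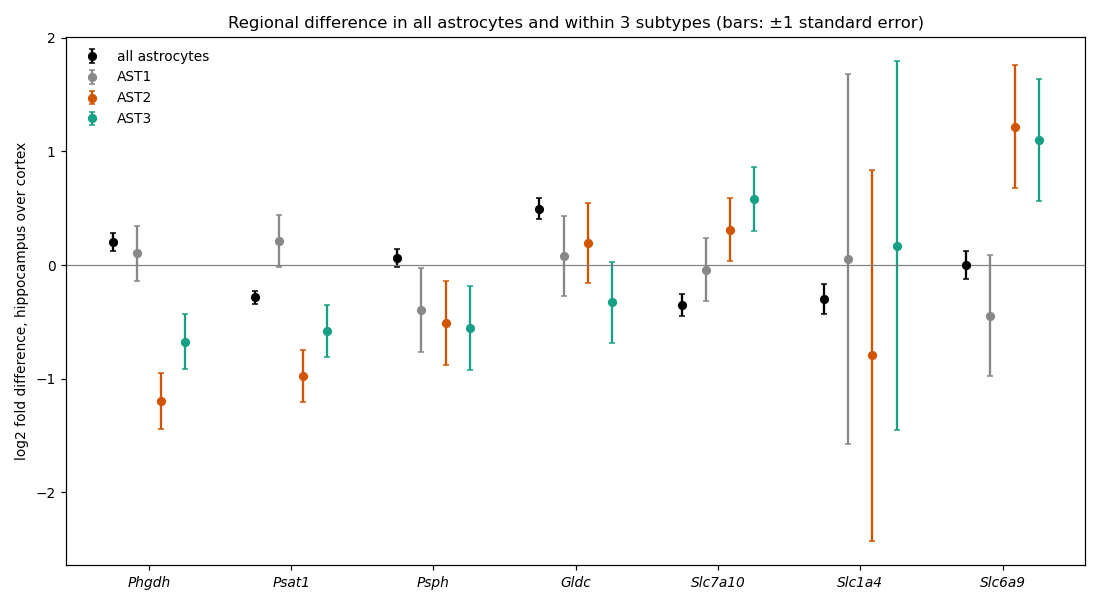
Fitted log2 difference, hippocampus over cortex (y axis), for 7 genes (x axis) in all astrocytes and within AST1, AST2 and AST3. Bars give 1 SE, the standard error implied by the F statistic, on each side. For Slc7a10 the black point of all astrocytes lies below 0 and those of AST2 and AST3 above it, and for Phgdh the order is the reverse.

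The mix of subtypes differed between regions, and the regional level was therefore also computed with the shares of AST1, AST2 and AST3 held fixed. With the mix of each suspension, the mean level of Slc7a10 in these subtypes was lower in hippocampus by 0.28 on the log2 scale (1782 against 1468 CPM). At the cortical mix it was higher in hippocampus by 0.40 (1779 against 2348 CPM) and at the hippocampal mix by 0.10 (1360 against 1458 CPM). Phgdh was higher in hippocampus by 0.18 with the mix of each suspension (972 against 1103 CPM). At the cortical mix its log2 difference was -0.72 (973 against 589 CPM) and at the hippocampal mix -0.10 (1176 against 1099 CPM). The suspensions of the regions did not overlap for Slc7a10 under any mix, nor for Phgdh with the mix of each suspension or the cortical mix. At the hippocampal mix those of Phgdh overlapped (1220 and 1132 CPM in cortex, 1152 and 1047 CPM in hippocampus). Levels at a fixed mix were not tested, so a turned direction was not shown for either gene at any mix.

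Psat1 was lower in hippocampus with the mix of each suspension and at the cortical mix, with log2 differences of -0.35 and -0.65. At the hippocampal mix the difference was -0.04 and the suspensions overlapped. Psph had a difference of -0.01 with the mix of each suspension, -0.49 at the cortical mix and -0.46 at the hippocampal mix, and the suspensions of the regions did not overlap at either fixed mix. Gldc, higher by 0.38 with the mix of each suspension, differed by 0.05 and -0.02 with the mix fixed. Slc6a9 went from -0.06 to 1.13 at the cortical mix and 0.01 at the hippocampal mix. The cortical mix weighs AST2 most, for which hippocampus gave few cells. As subtypes had been defined on the same genes, a level within a subtype is not independent of the way cells were assigned. Whether cell assignment, dissociation or litter has a part in this was not tested.

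**Figure D5:**
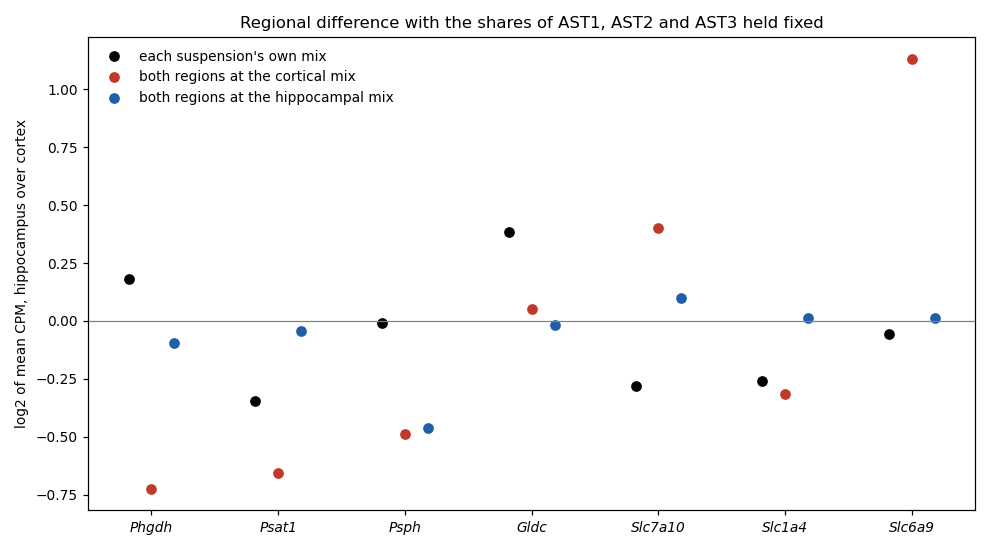
Log2 ratio of mean CPM, hippocampus over cortex (y axis), for 7 genes (x axis) with the AST1, AST2 and AST3 shares of each suspension (black), the cortical shares (red) and the hippocampal shares (blue) in both regions. The points of Slc7a10 move from below 0 to above it and those of Phgdh from above 0 to below it once the shares are fixed, the Phgdh suspensions overlapping at the hippocampal shares.

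In mural cells 4 of the 10 genes (Psph, Srr, Shmt2 and Slc1a4) had enough counts to be compared between regions, and 0 of these were called, 0 at an unadjusted p under 0.05 and 0% of all genes. DESeq2 called 1, Srr, which was at 0 in both cortical sums and at 19.4 and 1.07 CPM in hippocampus 1 and hippocampus 2 (unadjusted p = 0.0593 and adjusted p = 0.592 by edgeR). Psph was also higher in hippocampus (9.84 and 41.2 CPM) than in cortex (3.23 and 0 CPM) without overlap, with a difference of 4.05 (SE 3.53; adjusted p = 1.00 by edgeR). Slc1a4, the most abundant of them, was at 144.2 and 259.1 CPM in cortex and 68.7 and 130 CPM in hippocampus, ranges that did not overlap, and its difference was -0.87 (SE 0.588; adjusted p = 1.00).

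The wider network of serine, glycine and folate genes was described with 5 lists of 51 genes. In AST4, where 0.636% of all genes were called, 1 of 12 folate cycle genes was called, Aldh1l1, the cytosolic formyltetrahydrofolate dehydrogenase often used to mark astrocytes. It was at 36.6 and 106.4 CPM in AST4 against means of 564 to 682 CPM in AST1, AST2 and AST3, a difference of -3.29 (SE 0.370; adjusted p = 0.000351). In AST4, no gene of the 3 glycine cleavage partners, the 13 tested genes of serine use, the 10 tested carriers or the 8 tested genes of the amino acid response was called. In AST1, AST2 and AST3 no gene of any list was called, beside 0.0384%, 0.0548% and 0% of all genes. The median differences of the folate list were 0.28, -0.19, 0.57 and 1.23 in AST1 to AST4, beside 0.31, -0.14, 0.18 and 0.05 over all genes.

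In AST5, list genes were lower and 0 higher, among 66 higher and 3027 lower genes in all (439 and 2682 with library totals in place of TMM factors): 3 of 12 folate genes, 6 of 13 of serine use, 4 of 10 carriers and 1 of 8 of the amino acid response, beside 16.6% of all genes lower. The folate and response counts are near that share. The summed level of the folate list was nonetheless 1477 to 1957 CPM in AST5, with 8 or 9 of its 12 genes at 0 in each sum, against at most 1084 CPM in the sums of the other subtypes, and that of the 3 glycine cleavage partners was 786 to 991 CPM against at most 537 CPM. Those with counts left in AST5 give a size. Slc3a2, the heavy chain that brings Slc7a10 to the membrane, was at 474 ± 340 CPM in AST5 and 1505 ± 208.9 CPM in AST2, a difference of -2.24 (SE 0.326; adjusted p = 0.000288). Serinc3, of a family named for serine incorporation into lipids, was at 69.2 ± 36.8 CPM, a difference of -1.98 (SE 0.381; adjusted p = 0.00278). Sptlc1 and Sptlc2, subunits of the enzyme that begins sphingolipid synthesis from serine, Ptdss2, which makes phosphatidylserine, Slc38a2, Slc7a5 and Sfxn2, carriers of neutral amino acids, Mthfd2 and Mtfmt of the folate list, and Vldlr of the response list had at most 5.87 CPM in its sums, the highest being Ptdss2. Aldh1l1 in AST5, at 1183 ± 163.1 CPM (n = 3), was not among the genes called.

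Between types, Slc38a5, a carrier of glutamine, glycine and serine, was the 1 list gene higher in endothelial cells, at 516 ± 345.4 CPM (n = 4) and in 56.7% of the cells, against 0.0561% of astrocytes (adjusted p = 0.0387). Serinc3 was higher in mural cells, at 1278 ± 80.1 CPM (n = 4) against 158.8 ± 16.7 CPM in astrocytes, by 2.36 (SE 0.591; adjusted p = 0.0325), and in microglia, where it was named after its value was seen, by 2.11 (SE 0.616; adjusted p = 0.0418). Cbs, which joins serine to homocysteine, had a mean of 560 ± 34.9 CPM in astrocytes and at most 0.0676 CPM in mural sums. In endothelial cells, where 17.9% of all genes tested were called in either direction, 3 of 12 folate genes, 1 of 10 tested genes of serine use, 1 of 11 tested carriers and 1 of 8 tested response genes were lower. In mural cells (13.4%) these counts were 1, 2, 3 and 0, and in microglia (11.3%) they were 1, 5, 3 and 1. The folate counts are near these shares in all 3 types, and nothing is read from them. Aldh1l1 and Slc38a1 were lower in both vascular types. The astrocyte level of Slc38a1, 24.2 ± 24.9 CPM, stands beside means of 329.2 CPM in AST4 and at most 15.3 CPM in AST1, AST2 and AST3. Amt, the aminomethyltransferase of the glycine cleavage system, was lower in microglia, with no count in the 3 sums. In neuronal and oligodendrocytic cells no list gene was called, and between regions none in all astrocytes, in mural cells or within a subtype.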

How the data were processed

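The authors aligned reads to GRCm38.p5 with STAR 2.5.2b after FastQC 0.11.4 and counted them per gene with HTSeq, per the labels, and deposited raw counts per cell. A median of 12.2% of counts lay outside exons and 4.80% on more than 1 gene; they were left out. Of 2031 cells 2030 were used and 1982 had a type. A table of the whole series was compared in 32 columns, which matched, and its other 1999 columns were not used.

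Counts were summed per suspension and type (at least 3 cells) or subtype (at least 5 cells) and tested with edgeR 4.0.16 in R 4.3.3 (TMM, filterByExpr, robust quasi-likelihood fit, Benjamini-Hochberg adjustment). Region was a term in the fits of types and subtypes. Each SE is the absolute log2 difference divided by the square root of the F statistic. DESeq2 1.42.0, other scalings, filters and cell minimums, freeze-thaw cycles of the template-switching oligonucleotide and leaving out suspensions were alternatives. Intervals and floors (3 counts) cover counting error only.

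The members and lists were chosen with earlier results of these data known. Named were all members, up to 4 called genes a list and comparison with the largest change, and the 3 genes most like each member counted in over 25% of astrocytes; 1 called list gene is not reported here. Same-numbered suspensions of the regions came from different litters and did not deviate together (r = 0.01 in astrocytes and -0.01 in mural cells). Between types and subtypes the suspension is a true block. Its 24 pairs of subtype sums had r from -0.02 to 0.04. Deviations were taken from the mean of both sums of a subtype and region. Both suspensions of a region therefore give the same r, and these pairs are not all separate values.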

Additional observations from a re-analysis of the deposited data

Results flagged for a closer look

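In 5 of 43 groups of 4 sums, 1 sum stood apart from the rest by Dixon's criterion. Chance meets it in about 1 in 20 groups of normally distributed values. Groups with most sums at or near 0 were included, where counts in very few cells can meet it. The 5 of 43 is therefore not read as an excess over chance. Slc6a9 in AST1 was at 120 CPM in cortex 1 and at 61.8 to 66.9 CPM in the other suspensions. Shmt1 in AST2 was at 4.61 CPM in hippocampus 2 and at 0 to 0.595 CPM elsewhere. In mural cells Psat1 was at 3.89 CPM in cortex 1 against 0 to 0.0362 CPM, Srr at 19.4 CPM in hippocampus 1 against 0 to 1.07 CPM, and Slc6a9 at 6.82 CPM in hippocampus 1 against 0 in the others.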

How the results depend on the processing

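Of 621 values of 41 gene comparisons under alternatives, 504 kept direction and side of the threshold. A call was lost in 78 and gained in 31, and 8 reversed. The cause was not tested. The shares of all genes called under these alternatives are not given beside the counts of calls, here or below. Those counts are therefore not read as results about the 10 genes. Between types the 10 calls became 23 with DESeq2, 4 without a filter, 3 at 0 freeze-thaw cycles and 0 to 3 without a suspension. Between subtypes the 3 calls became 10 with DESeq2, 5 with library totals (added after seeing the data, as was leaving out hippocampal AST2), 5 at 0 cycles, 8 with at least 10 cells, 7 with equal weights and 1 to 4 without a suspension. Between regions within subtypes the 1 call became 4 with DESeq2, 3 at 1 cycle, 2 with at least 10 cells, 0 to 2 without a suspension, and 0 each with RLE factors, ERCC scaling, no filter, thinned cells and 0 cycles. DESeq2 called 3 in all astrocytes, 1 in mural cells and 2 of the differences between subtypes, in place of 0; leaving out a suspension gave 0, 0 and 0 to 3, and the differences gave 5 at 1 cycle and 1 with at least 10 cells.

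Reversed values were Shmt2 (-0.16) and Psat1 (-0.34) in AST4 and AST5 at 1 cycle, Slc1a4 in AST4 (0.014, equal weights), Phgdh in AST5 (-0.10, at least 10 cells), the regional Slc7a10 in AST1 (reported as -0.04, from -0.14 to 0.056 without a suspension and 0.24 at 1 cycle) and AST2 (reported as 0.31, from -0.11 to 0.64 without a suspension), and Phgdh in all astrocytes (-0.018, ERCC).

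With the suspension as a block (pairing), calls became 4 between types, 2 between subtypes (Slc6a9 in AST5, adjusted p = 0.0912) and 0 within subtypes (Phgdh in AST2, adjusted p = 0.0927), and stayed 0 in all astrocytes, mural cells and the differences.

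Over all genes, the higher and lower calls in AST4 went from 20 and 96 to 47 and 79 with library totals and 75 and 48 with ERCC scaling, a median shift of 0.65 (log2). The share of higher ones among oligodendrocytic calls went from 5.47% to 15.5% and 23.7%. AST2 calls went from 2 and 8 to 3 and 1 with RLE factors and 4 and 6 with library totals.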

Other observations

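Some genes outside the rule for naming were picked after their values were seen. Slc38a1, a glutamine transporter, was at 297.8 and 360.7 CPM in AST4 and in 54.9% of its cells, against means of 0.645 to 15.3 CPM in AST1, AST2 and AST3, without a call. Slc38a2, a neutral amino acid transporter, had a mean of 1077 ± 123.3 CPM in oligodendrocytic sums (n = 2) and 32.7 ± 15.6 CPM in astrocytes (n = 4). Slc7a5, the light chain that pairs with Slc3a2, was at 341.7 ± 12.98 CPM in endothelial sums and 15.6 ± 2.47 CPM in astrocytes (n = 4 each). Neither of these passed the test.

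A further 15 cells had no type and 33, all from cortex 1, were not in the authors' list. Of the former, 5 had a count of Phgdh and 7 of Slc7a10, with a median of 1074 genes per cell. Of the latter, 26 had Phgdh (813 CPM) and 29 had Slc7a10 (1670 CPM), with a median of 2208 genes.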
